A study of Mus musculus with 12 samples.

Results

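The genes described here encode the machinery of oxidative phosphorylation, that is the nuclear-encoded subunits of respiratory complexes I to V together with the genes that share their name prefixes. They were chosen by symbol in the platform's probe table: every gene whose symbol starts with Nduf, Uqcr, Cox4, Cox5, Cox6, Cox7, Cox8 or Atp5, and Sdha, Sdhb, Sdhc and Sdhd. The rule found 90 genes with 179 probe sets, among 18193 genes with 34945 probe sets that carry 1 symbol. Of the 90 genes, 73 are subunits: 34 of complex I, 4 of complex II, 8 of complex III, 10 of complex IV and 17 of complex V. The other members are 8 assembly factors of complex I (the Ndufaf genes), 3 muscle isoforms and 4 other tissue isoforms of complex IV, the paralog Ndufa4l2, and Cox7a2l, which helps complexes III and IV to associate. Ndufa4 carries a complex I name and is counted here with complex IV, where its protein belongs.

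The RNA came from CTLL-2 and was read on Affymetrix Mouse Genome 430 2.0 arrays. CTLL-2 is a line of mouse cytotoxic T cells from a C57BL/6 mouse that needs interleukin 2 (IL-2). In all groups, cells grown in 50 U/mL human recombinant IL-2 were washed and kept without the cytokine for 14 h. Cycloheximide, which blocks protein synthesis, was then added at 20 µg/mL. One group was harvested after 30 min of cycloheximide and another after 4.5 h. The IL-2 group received cycloheximide for 30 min and then IL-2 at 100 U/mL for 4 h, and the labels do not state whether cycloheximide was washed out before IL-2. Each group had 4 arrays, and a group without cycloheximide named in the series' text was not analysed here. The cells are 1 line, and no label states that the replicate arrays came from different cultures, so the p-values cover only array-to-array spread, possibly a technical one.

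The array with the label IL-2 plus cycloheximide replicate 3 was left out of the comparisons, so the IL-2 group has 3 arrays and the analysis 11. On it 9 of 10 T cell markers were below their level on every other array, and Cd3e read 27.0 against at least 3614 elsewhere. The same array had 10 of 12 skeletal muscle markers above every other array. On the 11 arrays analysed the mean log2 value of the T cell list was 11.81 to 11.91 in the IL-2 arrays, 11.91 to 12.24 in the 30 min arrays and 12.05 to 12.35 in the 4.5 h arrays, and the part of this difference in the results was not tested. The muscle list lay between 5.92 and 6.44 on all of them. Among the defining T cell genes, Cd2 was at background on these arrays, between 3.1 and 14.7, and Cd8a read 87.3 to 334.8. Every array had a trimmed mean signal of 499.8. Scanning took place on 3 days: the first held 3 IL-2 and 3 of the 30 min arrays, the second 1 of each, and the third all 4 arrays of the 4.5 h group. Scan day and group therefore cannot be told apart in the comparisons with the 4.5 h group.

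Oxidative phosphorylation makes most ATP in resting cells. Complex I takes electrons from NADH and complex II from succinate, both pass them through ubiquinone to complex III, and cytochrome c carries them to complex IV, which reduces oxygen. Complexes I, III and IV pump protons across the inner mitochondrial membrane, and complex V, the ATP synthase, lets them back to drive ATP synthesis. All of these except complex II also hold subunits encoded in mitochondrial DNA, which the rule does not reach. T cells raise mitochondrial respiration and glycolysis when they are stimulated to grow, and IL-2 is one of the cytokines that maintain this state.

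Signals are linear intensities, compared as log2(signal + 16) with limma over 27022 probe sets, and a gene is represented by its brightest tested probe set. A gene is said to rise or fall where the p-value adjusted by Benjamini-Hochberg over all probe sets was under 0.05. Of the 90 members 84 could be tested. Ndufb4, Cox7a1, Cox8b, Cox6b2, Cox7b2 and Ndufa4l2 had no probe set bright enough for the test. Levels are not compared between genes, because probe sets differ in how they bind their transcript.

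With IL-2 at matched time, that is the IL-2 group against 4.5 h of cycloheximide alone, subunit genes of the respiratory complexes were lower. None of the 72 subunit genes tested rose and 34 (47.2%) fell, against 16.1% of all 12754 genes tested that fell and 13.2% that rose. Their median log2 difference was -0.42, and that of all genes was -0.07. In 48 subunit genes (66.7%) every IL-2 array was below every 4.5 h array, which held for 24.9% of all genes. Changes were moderate: 4 subunit genes, Atp5h, Ndufa5, Ndufb6 and Atp5b, fell by at least 2-fold, a size reached by 5.94% of all genes. Among all 84 members tested 35 fell, and 14 of these also rose from 30 min to 4.5 h of cycloheximide alone. Of the 35, 12 were also called lower with IL-2 than at 30 min. These overlaps were not counted over all genes.

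Most subunit genes gave bright probe sets, so they were also set beside other bright genes. Of 1153 genes with a mean log2 value of at least 12, a limit chosen after the data were seen, 32.3% fell and the median was -0.25. Of the 60 subunit genes this bright 31 fell, with a median of -0.48. In bulk RNA, fewer cells of a kind and less RNA per cell cannot be told apart. The 3′ minus 5′ signal of Actb, a sign of RNA integrity, was 0.56 ± 0.17 on the log2 scale (SD, n = 4) in the 4.5 h group and 0.25 ± 0.03 (n = 3) in the IL-2 group. For Gapdh it was -0.08 ± 0.08 (n = 4) and -0.22 ± 0.05 (n = 3). In the 30 min group it was 0.29 ± 0.04 for Actb and -0.21 ± 0.09 for Gapdh (n = 4), near the values of the IL-2 group. The part of RNA integrity in the differences of the subunit genes was not tested.

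**Figure D1:**
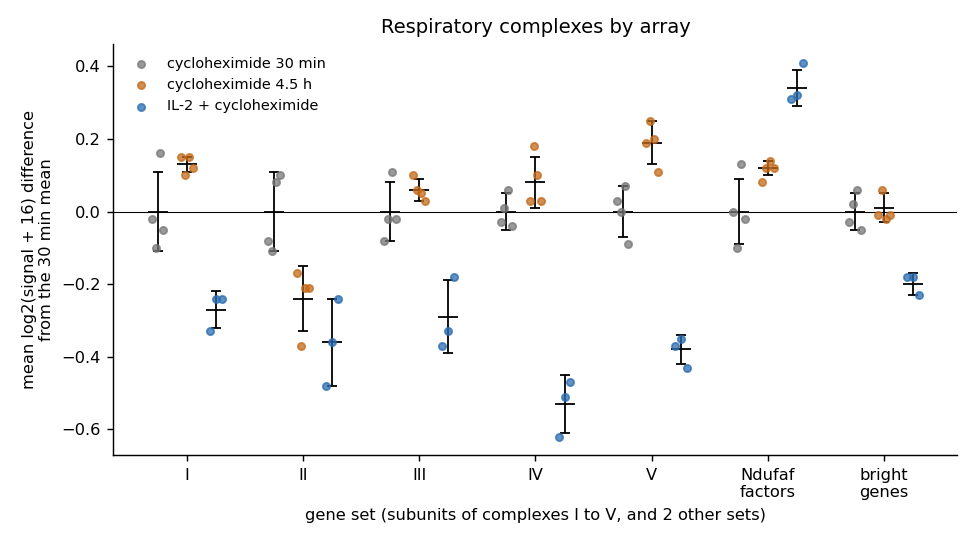
Mean over the tested genes of each set of the log2(signal + 16) difference from the mean of the 30 min arrays, by array (points), with the group mean and SD (bars), for the subunits of complexes I to V, the Ndufaf assembly factors and bright genes. The 3 IL-2 arrays lie below all other arrays for complexes I, III, IV and V and above them for the Ndufaf factors, whereas complex II is also low in the 4.5 h arrays. For bright genes too the IL-2 arrays are lowest, at -0.23 to -0.18 against -0.05 to 0.06 on the other arrays.

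The number of genes that fell varied among the complexes, which are set side by side here by counts and medians without a test. In complex IV 7 of 10 genes fell and the median was -0.66, in complex V 11 of 17 with -0.56, in complex I 13 of 33 with -0.35, in complex III 2 of 8 with -0.35 and in complex II 1 of 4 with -0.12. Averaged over the genes of a complex, the IL-2 arrays lay at -0.53 ± 0.08 for complex IV (log2 relative to the 30 min mean, SD, n = 3) and the 4.5 h arrays at 0.08 ± 0.07 (n = 4). For complex V these means were -0.38 ± 0.04 and 0.19 ± 0.06, and for complex I -0.27 ± 0.05 and 0.13 ± 0.02. For complex III they were -0.29 ± 0.10 and 0.06 ± 0.03. Complex II stood at -0.36 ± 0.12 in the IL-2 arrays and -0.24 ± 0.09 in the 4.5 h arrays, and its 2 groups overlapped. The order of the complexes depended on scaling. With quantile normalization the medians were -0.20 for complex IV, -0.33 for complex V, -0.27 for complex I, -0.23 for complex III and -0.11 for complex II.

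**Figure D2:**
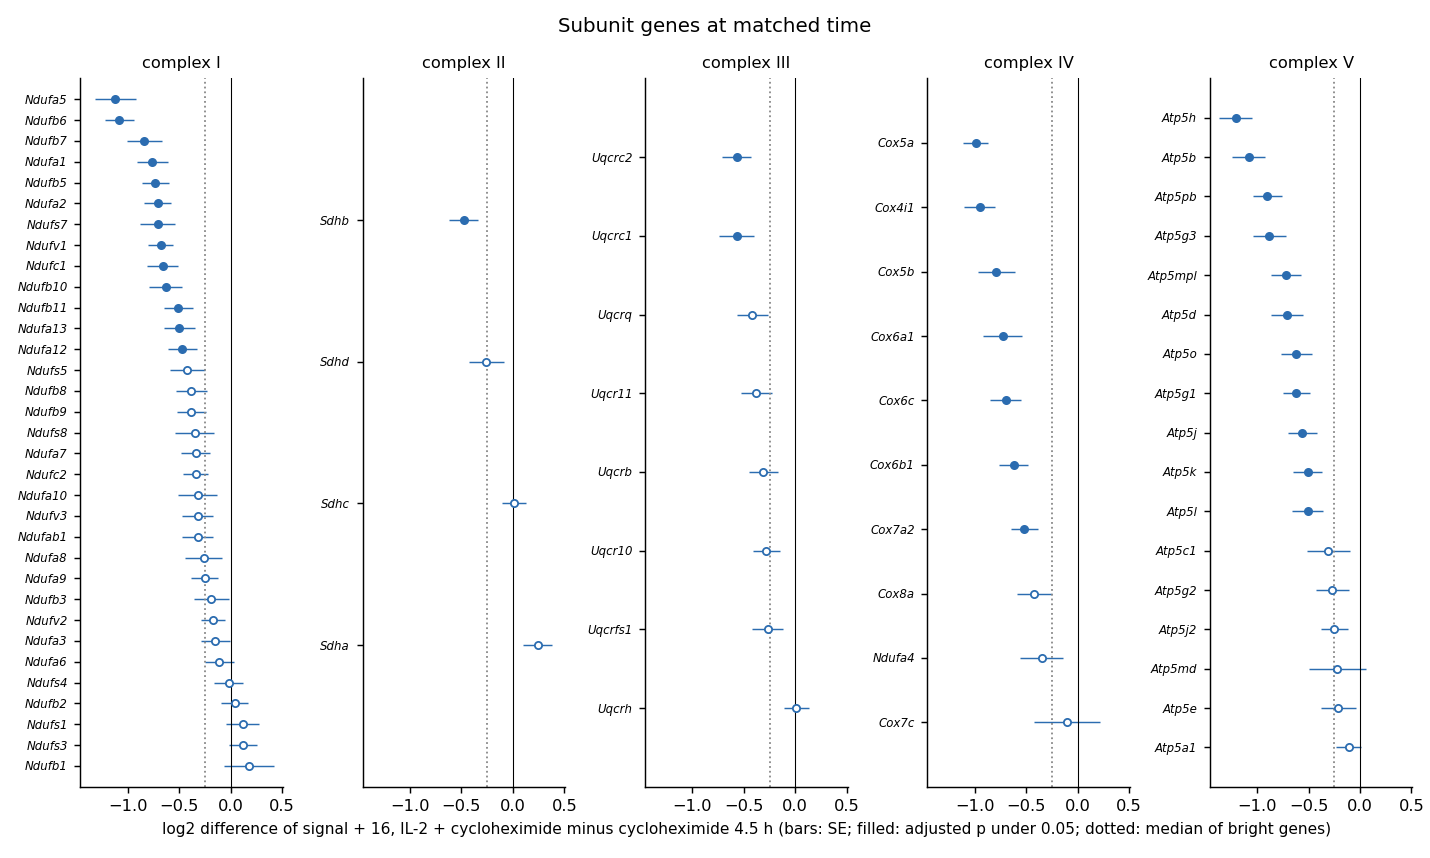
Log2 difference of signal + 16 between the IL-2 group and 4.5 h of cycloheximide for each tested subunit gene, by complex, with SE (bars). Filled points passed an adjusted p of 0.05, and the dotted line is the median of bright genes, -0.25. All 10 genes of complex IV and all 17 of complex V lie below 0.

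Complex V, the ATP synthase, held the largest fall among the members. Atp5h encodes subunit d of the peripheral stalk, which holds the catalytic head still against the turning rotor. Its signal was 15501, 14665 and 13051 in the IL-2 arrays, 29330, 40906, 31957 and 32357 in the 4.5 h arrays, and 20589, 21336, 19767 and 16916 in the 30 min arrays. All 3 groups were separate, with the IL-2 arrays lowest and the 4.5 h arrays highest. The log2 difference with IL-2 at matched time was -1.21 ± 0.16 (SE; limma adjusted p = 0.000423). Atp5pb, subunit b of the same stalk, read 11007, 10642 and 8447 with IL-2 and 19747, 17755, 18613 and 18506 at 4.5 h. The groups did not overlap, and the difference was -0.90 ± 0.14 (limma adjusted p = 0.00137). Atp5pb has other probe sets, and without probe sets marked as able to cross-hybridize its difference was 0.01, so its fall rests on 1 probe set.

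The ATP synthase has a catalytic head, F1, and a membrane part with its stalk, Fo. Among F1 genes 2 of 5 fell and the median was -0.31, and among Fo genes 9 of 12 fell and the median was -0.59. Atp5b encodes the catalytic beta subunit. Its signal was 10615, 10297 and 10133 with IL-2 and 21663, 22667, 21641 and 21689 at 4.5 h, a log2 difference of -1.08 ± 0.16 (limma adjusted p = 0.000925). All IL-2 arrays were below all arrays of the other groups, whose 30 min values were 15811, 18257, 13525 and 11515. Atp5g1, Atp5g2 and Atp5g3 encode the same mature c subunit of the rotor ring with different import sequences. Atp5g3 fell by 0.88 ± 0.16 on the log2 scale (limma adjusted p = 0.0026) and Atp5g1 fell by 0.62 ± 0.13 (limma adjusted p = 0.00643), whereas Atp5g2 had a difference of -0.27 ± 0.16 (limma adjusted p = 0.23). Atp5mpl, a small membrane subunit, fell by 0.72 ± 0.15 (limma adjusted p = 0.00517).

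In complex IV, cytochrome c oxidase, Cox5a and Cox4i1 showed the largest falls. Cox5a encodes a subunit on the matrix side of the enzyme. It read 12976, 12656 and 11882 with IL-2, 22251, 26953, 24497 and 26046 at 4.5 h, and 17339, 16847, 16550 and 16365 at 30 min. The 3 groups were again separate in the same order as for Atp5h, and the difference at matched time was -0.99 ± 0.12 (limma adjusted p = 0.000354). Cox4i1, the widely expressed form of subunit 4, read 13958, 15006 and 13999 with IL-2 and 26933, 32702, 25658 and 26154 at 4.5 h. Its difference was -0.95 ± 0.15 (limma adjusted p = 0.00114), with no overlap. Cox5b fell by 0.79 ± 0.18, Cox6a1 by 0.73 ± 0.19, Cox6b1 by 0.62 ± 0.14 and Cox7a2 by 0.52 ± 0.13 on the log2 scale (limma adjusted p = 0.0089, 0.0153, 0.00825 and 0.0152). Cox8a, at -0.42 ± 0.17, Ndufa4, at -0.35 ± 0.21, and Cox7c, at -0.10 ± 0.32, did not pass the test. Cox7c was measured by a dim probe set, with signals between 30.5 and 154.7, and whether that probe set measures the main Cox7c transcript was not tested. Without Cox7c, an alternative chosen after the data were seen, the median of complex IV was -0.70 at matched time and its mean stood at 0.19 ± 0.09 in the 4.5 h arrays and -0.48 ± 0.04 in the IL-2 arrays.

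In complex I, 2 of 6 core genes and 11 of 27 accessory genes fell. Ndufa5, an accessory subunit of the arm that reaches into the matrix, read 1622, 1934 and 2054 with IL-2 and 3928, 3962, 4115 and 4250 at 4.5 h. The groups did not overlap and the difference was -1.12 ± 0.20 (limma adjusted p = 0.00241). Ndufb6, an accessory subunit of the membrane arm, read 3299, 3441 and 3120 with IL-2, 6618, 6633, 7242 and 7486 at 4.5 h, and 4442, 3439, 4567 and 3999 at 30 min. The 4.5 h arrays stood apart from both other groups, which overlapped, and the difference at matched time was -1.08 ± 0.14 (limma adjusted p = 0.000427). Ndufb7 fell by 0.84 ± 0.17 and Ndufa1 by 0.76 ± 0.15 on the log2 scale (limma adjusted p = 0.00505 and 0.00422). By naming series, 5 of 12 genes of the A series, 5 of 10 of the B series and 1 of 2 of the C series fell.

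Complexes II and III had the smallest shares of genes that fell, 1 of 4 and 2 of 8. These shares lay between the 16.1% of all genes and the 32.3% of bright genes. In complex III, however, 6 of 8 genes had every IL-2 array below every 4.5 h array, against 24.9% of all genes. That held for 20 of 33 genes in complex I, 7 of 10 in complex IV and 13 of 17 in complex V. In complex II it held for 2 of 4. By that measure complex III was not behind complexes I and IV. The same share among bright genes was not counted. In complex III the core proteins Uqcrc1 and Uqcrc2 fell, by 0.57 ± 0.17 and 0.57 ± 0.14 on the log2 scale (limma adjusted p = 0.0294 and 0.0112). Against 30 min, however, their differences with IL-2 were 0.02 ± 0.17 and -0.11 ± 0.14 (limma adjusted p = 0.952 and 0.604). Uqcrh, the hinge protein that holds cytochrome c1, had a difference of 0.01 ± 0.12 (limma adjusted p = 0.982). Complex II is also an enzyme of the tricarboxylic acid cycle. Its iron-sulfur subunit Sdhb read 3970, 4407 and 4281 with IL-2 and 6550, 5262, 6130 and 5718 at 4.5 h, with no overlap, and fell by 0.48 ± 0.14 (limma adjusted p = 0.0263). The flavoprotein subunit Sdha read 5232, 5397 and 6374 with IL-2 and 5076, 4015, 5122 and 5006 at 4.5 h. Its IL-2 arrays were all above the 4.5 h arrays, but the difference of 0.24 ± 0.14 did not pass the test (limma adjusted p = 0.251). Of the membrane anchors, Sdhc had a difference of 0.01 ± 0.12 and Sdhd of -0.26 ± 0.17 (limma adjusted p = 0.945 and 0.289).

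Some of these calls depended on 1 array. Without IL-2 replicate 2 the adjusted p of Uqcrc2 was 0.0526 and that of Cox6a1 0.0522, and without IL-2 replicate 1 that of Cox7a2 was 0.0509. The call of Sdhb was lost in 6 of the 11 fits that left out an array (each IL-2 array and 4.5 h replicates 1, 3 and 4), with differences between -0.54 and -0.43. That of Uqcrc1 was lost in 5 (IL-2 replicates 1 and 2 and 4.5 h replicates 1, 3 and 4), with differences between -0.69 and -0.47. Of the 37 members called at matched time, 24 were called in every such fit, and the number that fell was between 24 and 40. With the left-out library included, 1 member gene fell and the median was -0.10, and with quantile normalization of the 11 arrays 20 fell.

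The assembly factors of complex I help to build the complex and leave it afterwards. Of the 8 Ndufaf genes 2 rose and 1 fell, and the median was 0.20. In so short a list these counts are near the shares of all genes, 13.2% that rose and 16.1% that fell. Ndufaf4 read 2855, 3241 and 3581 with IL-2, 1450, 1252, 1547 and 1421 at 4.5 h, and 1198, 1124, 1995 and 1216 at 30 min. The IL-2 arrays were all higher than the others, and the difference at matched time was 1.17 ± 0.20 (limma adjusted p = 0.00208). A dimmer probe set of Ndufaf4 read 460.9, 403.0 and 560.7 with IL-2 and 368.1 to 483.6 at 4.5 h. For that probe set the groups overlapped and the difference was 0.09 ± 0.16 (limma adjusted p = 0.699). Ndufaf1, which acts on the membrane arm, read 1775, 1838 and 1474 with IL-2 and 998.5, 969.6, 1053 and 1063 at 4.5 h. Its difference was 0.72 ± 0.14 (limma adjusted p = 0.0046), with no overlap. Ndufaf2 read 676.7, 650.0 and 629.4 with IL-2 and 980.9, 952.3, 923.0 and 993.6 at 4.5 h. It was lower in every IL-2 array and fell by 0.55 ± 0.12 (limma adjusted p = 0.00688).

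**Figure D3:**
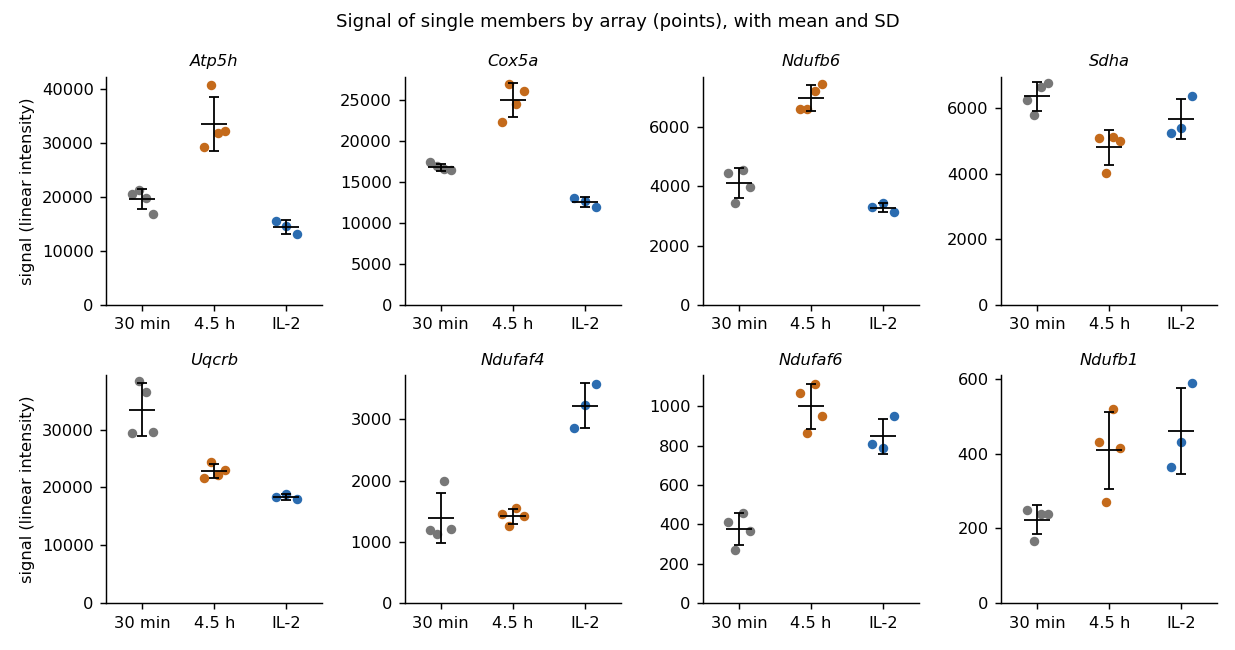
Signal on a linear scale for 8 members by array (points), with mean and SD (bars), in the 30 min, 4.5 h and IL-2 groups, without the left-out library. Atp5h, Cox5a and Ndufb6 are highest at 4.5 h, Uqcrb is highest at 30 min, Ndufaf4 is highest with IL-2, and Ndufaf6 and Ndufb1 are higher in both later groups than at 30 min.

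To show what the DNA around the start of these genes holds, the window from 250 bases before to 50 bases after the start was taken from RefSeq (GRCm38.p6), which had 74 of the 90 members. Respiratory genes are known for sites of NRF1 and of GABPA, an ETS factor, which are regulators of nuclear genes for mitochondrial proteins. YY1 and NFY, which binds the CCAAT box, are general promoter factors. The 5 windows printed are those of the ATP synthase genes Atp5h, Atp5b and Atp5j and the oxidase gene Cox6a1, which fell, and the assembly factor Ndufaf4, which rose. The windows lie at chr11:115419870-115420169 (minus strand) for Atp5h, chr10:128083057-128083356 (plus) for Atp5b and chr16:84834927-84835226 (minus) for Atp5j. Those of Cox6a1 and Ndufaf4 lie at chr5:115348909-115349208 (minus) and chr4:24897833-24898132 (plus). Capitals mark CGCATGCG (NRF1), AAGATGGC (YY1), CCGGAAG (ETS), CCAAT and CACGTG (the E box of MYC) on either strand, so that ATTGG and CTTCCGG are matches too.
Atp5h: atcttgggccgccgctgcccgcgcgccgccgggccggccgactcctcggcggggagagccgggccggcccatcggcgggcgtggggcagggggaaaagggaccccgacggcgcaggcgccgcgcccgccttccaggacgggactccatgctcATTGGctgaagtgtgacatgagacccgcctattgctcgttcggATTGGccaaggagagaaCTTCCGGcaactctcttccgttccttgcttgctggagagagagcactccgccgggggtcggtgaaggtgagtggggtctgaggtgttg
Atp5b: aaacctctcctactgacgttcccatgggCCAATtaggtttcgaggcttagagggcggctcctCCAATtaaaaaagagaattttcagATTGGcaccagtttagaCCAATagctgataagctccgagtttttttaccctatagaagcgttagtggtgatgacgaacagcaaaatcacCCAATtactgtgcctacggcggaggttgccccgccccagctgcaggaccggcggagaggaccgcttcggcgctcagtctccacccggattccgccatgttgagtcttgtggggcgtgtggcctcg
Atp5j: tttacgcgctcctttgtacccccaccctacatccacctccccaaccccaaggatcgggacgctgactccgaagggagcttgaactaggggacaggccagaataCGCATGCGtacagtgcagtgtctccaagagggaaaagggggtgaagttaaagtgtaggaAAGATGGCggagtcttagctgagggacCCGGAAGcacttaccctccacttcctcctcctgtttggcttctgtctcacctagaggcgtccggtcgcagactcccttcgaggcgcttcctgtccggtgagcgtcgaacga
Cox6a1: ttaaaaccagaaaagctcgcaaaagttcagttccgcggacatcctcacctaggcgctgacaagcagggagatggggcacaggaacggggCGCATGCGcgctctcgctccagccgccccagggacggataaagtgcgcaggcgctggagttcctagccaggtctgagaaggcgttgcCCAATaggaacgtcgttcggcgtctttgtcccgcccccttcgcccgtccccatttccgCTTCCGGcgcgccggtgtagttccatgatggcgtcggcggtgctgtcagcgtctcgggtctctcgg
Ndufaf4: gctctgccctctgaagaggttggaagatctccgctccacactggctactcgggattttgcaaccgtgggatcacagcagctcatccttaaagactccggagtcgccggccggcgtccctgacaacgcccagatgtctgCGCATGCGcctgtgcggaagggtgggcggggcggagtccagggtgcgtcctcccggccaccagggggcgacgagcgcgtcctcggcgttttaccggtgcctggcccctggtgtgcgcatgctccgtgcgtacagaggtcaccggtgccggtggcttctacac
The NRF1 letters occur once in Atp5j, Cox6a1 and Ndufaf4. Of all 74 members with a window 10 (13.5%) hold them, so the 5 windows printed hold them more often than the members do. Atp5j also holds the YY1 and ETS letters, and Cox6a1 also holds 1 ETS match and 1 CCAAT match. Atp5b holds 5 CCAAT matches and no ETS match, and Atp5h 2 CCAAT matches and 1 ETS match.

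Across the 62 subunit genes with a window, 12.9% held the NRF1 letters, against 2.96% of the windows of all 14369 genes of the probe table. The YY1 letters were in 14.5% against 3.68%, and the ETS letters in 27.4% against 13.7%. CCAAT was in 40.3% against 38.0%, the TATA box (TATAAA) in 9.68% against 9.81%, and the SP1 letters GGGCGG in 40.3% against 53.5%. Of the 29 subunit genes with a window that fell at matched time, 5 held the NRF1 letters, 4 the YY1 letters and 9 the ETS letters. Among the 32 that were tested and not called, 3, 5 and 8 did. CACGTG was in 9.68% of the subunit windows, against 8.84% of those of all genes, and it was in 5 of the 29 and in 1 of the 32, without a test. A match of letters is not a bound site.

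Other genes of the same pathway, taken from lists without the members, are read here against the 13.2% of all genes that rose and the 16.1% that fell at matched time. Of bright genes 11.5% rose and 32.3% fell, and the lists were not split by brightness. All 3 tested electron carriers and subunits whose names lie outside the prefixes fell, with a median of -0.78. Cycs, the soluble cytochrome c, read 7489 ± 336 (SD, n = 3) with IL-2 and 14422 ± 1170 (n = 4) at 4.5 h, a difference of -0.94 ± 0.13 (limma adjusted p = 0.000731). Cyc1, the cytochrome c1 of complex III, fell by 0.67 ± 0.20 (limma adjusted p = 0.0293), and Atpif1, which inhibits ATP hydrolysis by the synthase, by 0.78 ± 0.15 (limma adjusted p = 0.0042). The call of Cyc1 was lost without IL-2 replicate 1 or 2 or without 4.5 h replicate 1, 3 or 4, with an adjusted p of up to 0.107. At 30 min Cycs read 9261 ± 871 and Cyc1 4549 ± 1280 (SD, n = 4). Both rose from 30 min to 4.5 h, by 0.64 ± 0.12 and 0.80 ± 0.19 (limma adjusted p = 0.00307 and 0.00817). With IL-2 against 30 min none of the 3 genes was called, and the differences were -0.30 ± 0.13 for Cycs and 0.12 ± 0.20 for Cyc1. Of 6 carriers of ADP, ATP and phosphate and related channels 4 fell, among them Slc25a4, an ADP/ATP carrier, by 0.99 ± 0.18 (limma adjusted p = 0.00236). Of 30 assembly factors of complexes II to V 2 rose (6.67%) and 4 fell (13.3%), with a median of 0.05, shares at or below those of all genes. Sco2, a copper chaperone for complex IV, rose by 0.88 ± 0.22 (limma adjusted p = 0.0129, and 0.055 without IL-2 replicate 4), and Coa6 fell by 1.05 ± 0.16 (limma adjusted p = 0.00108). In the assembly factors of complex I without the prefix 1 of 8 rose and 2 fell, and of 12 genes of coenzyme Q synthesis 2 rose and none fell, with a median of 0.08. These counts are near what the shares of all genes would give in lists this short.

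The list of the tricarboxylic acid cycle without complex II had 3 genes that rose and 7 that fell of 17. It also holds Pdha1, Pdhb, Dlat and Pdhx of the pyruvate dehydrogenase complex, of which Pdhx rose and Pdha1 fell. Pdhx, a component of the pyruvate dehydrogenase complex, rose by 1.40 ± 0.17 (limma adjusted p = 0.000344), and Suclg1, a subunit of succinyl-CoA ligase, fell by 0.92 ± 0.16 (limma adjusted p = 0.00183). Of 76 mitochondrial ribosomal protein genes 6 rose and 20 fell, with a median of -0.25. Of 46 cytosolic ribosomal protein genes 33 fell and none rose, with a median of -0.77, which was lower than the median of any complex. Centring the arrays on ribosomal protein genes turned the sign: 15 member genes rose, 1 fell and their median was 0.33. That scaling shifts every probe set by the same amount in a comparison, and it moved the median of all probe sets from -0.02 to 0.70.

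**Figure D4:**
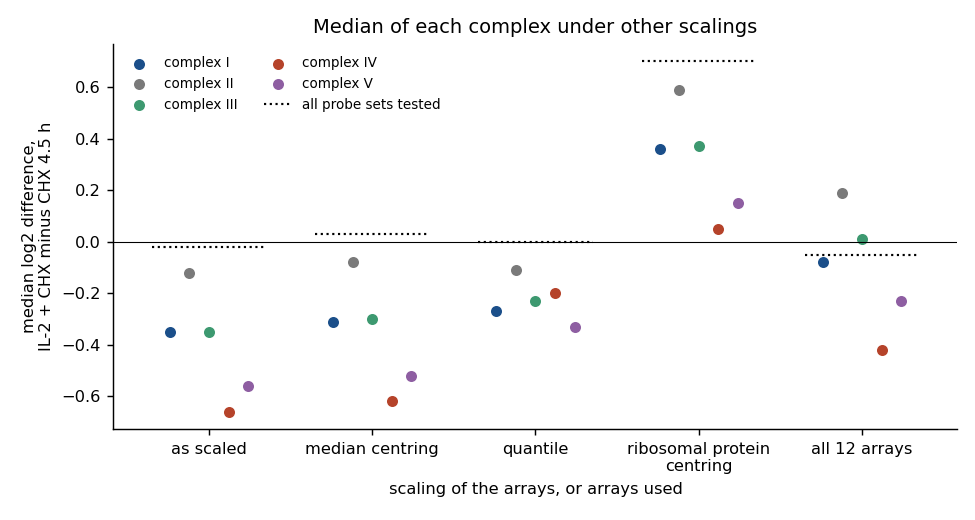
Median log2 difference between the IL-2 group and 4.5 h of cycloheximide for the subunits of each complex (points), under 4 scalings of 11 arrays and with all 12 arrays as scaled, with the median of all probe sets tested (dotted lines). As scaled, complex IV is lowest at -0.66, with quantile normalization complex V is lowest at -0.33, and with ribosomal protein centring, which shifts every probe set by the same amount, all medians are above 0 and that of all probe sets is 0.70.

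Over time in cycloheximide, that is 4.5 h against 30 min, the members moved less and in both directions. Of 84 tested members 16 rose and 8 fell, and the median was 0.11. Among all genes tested 20.0% rose and 13.7% fell with a median of 0.08, so the members' shares of 19.0% and 9.52% were close to the background. Complex V had 6 genes that rose and none that fell, complex I 5 and 1, complexes III and IV 2 and 2 each, and complex II none and 2. Without the dim probe set of Cox7c the falls in complex IV numbered 1. This comparison shares the 4.5 h arrays with the one above, so the same high 4.5 h values enter both.

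The rises included genes named above. Atp5h rose by 0.77 ± 0.14, Atp5pb by 0.64 ± 0.13 and Atp5b by 0.59 ± 0.15 on the log2 scale (limma adjusted p = 0.00261, 0.00483 and 0.0123), and Ndufb6 by 0.77 ± 0.13 (limma adjusted p = 0.00138). Cox5a rose by 0.57 ± 0.11 (limma adjusted p = 0.00371) and Uqcrc1 by 0.59 ± 0.16 (limma adjusted p = 0.0159). The largest rise was that of Ndufaf6, an assembly factor. It read 413.5, 269.4, 455.9 and 366.6 at 30 min, 1071, 865.0, 1116 and 954.1 at 4.5 h, and 806.8, 787.3 and 951.5 with IL-2. Every later array was above every 30 min array, and the rise over time was 1.39 ± 0.17 (limma adjusted p = 0.000282). Without cross-hybridizing probe sets the difference of Atp5pb was -0.23.

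Other members were lower at 4.5 h. Uqcrb, a subunit of complex III near the ubiquinone site, read 29360, 38332, 36462 and 29655 at 30 min, 21621, 24369, 22079 and 22950 at 4.5 h, and 18257, 18857 and 17939 with IL-2. The groups were separate, and the fall over time was -0.55 ± 0.13 (limma adjusted p = 0.00897). Ndufv2, an iron-sulfur subunit of the NADH-oxidizing part of complex I, read 5680, 5869, 5852 and 4994 at 30 min and 3824, 3514, 4067 and 3772 at 4.5 h. It did not overlap between the times and fell by 0.56 ± 0.11 (limma adjusted p = 0.00418). The assembly factor Ndufaf7 read 721.1, 746.3, 863.9 and 743.9 at 30 min and 493.2, 614.2, 630.1 and 575.6 at 4.5 h. Its times did not overlap either, and it fell by 0.40 ± 0.13 (limma adjusted p = 0.0312). In complex II, Sdha fell by 0.41 ± 0.13 and Sdhc by 0.35 ± 0.11 (limma adjusted p = 0.0391 and 0.032). Those 2 calls were lost in 9 and 4 of the 11 fits that left out an array: for Sdha all but IL-2 replicate 4 and 30 min replicate 2, and for Sdhc 30 min replicate 1 and 4.5 h replicates 1, 2 and 3. The adjusted p reached 0.0907 and 0.0901.

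The counts over time were sensitive to single arrays. Between 8 and 20 members rose in the fits that left out an array. The count was 10 without 30 min replicate 1 and 8 without 4.5 h replicate 3. The 8 falls became 6 without IL-2 replicate 4 or 30 min replicate 2 and 3 to 5 without any 1 of the other arrays. With the left-out library included 2 members rose and none fell. Median centring left 2 falls, and centring on ribosomal protein genes 1 rise.

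Against 30 min of cycloheximide, the IL-2 group had lower subunit levels and higher levels of some assembly factors. The IL-2 arrays were harvested 4 h later than the 30 min arrays, so IL-2 and time cannot be told apart in this comparison. Of 84 members 4 rose and 22 fell, and the median was -0.34, beside 14.5% of all genes that rose, 12.5% that fell and a median of -0.03. These counts depended on scaling: 10 members fell with quantile normalization, 3 with median centring and 0 with centring on ribosomal protein genes. Of the 1153 genes with a mean log2 value of at least 12, 9.37% rose and 23.5% fell, with a median of -0.28. The members' share that fell, 26.2%, was near that of these bright genes. The IL-2 group shares its arrays with the first comparison and the 30 min group with the second. Complex IV had 5 of 10 genes that fell (4 of 9 without Cox7c) and a median of -0.48, complex I 10 of 33 and -0.30, complex V 4 of 17 and -0.39, complex III 1 of 8 and -0.30, and complex II 1 of 4 and -0.25.

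Among the members that fell were Uqcrb and Ndufv2, which had also fallen over time. Uqcrb fell by 0.86 ± 0.14 and Ndufv2 by 0.73 ± 0.12 on the log2 scale (limma adjusted p = 0.00155 and 0.00188). Sdhb, whose 30 min values were 6374, 7692, 8185 and 7634, fell by 0.82 ± 0.14 (limma adjusted p = 0.00199). Its 4.5 h and 30 min arrays overlapped, and the difference between them did not pass the test (limma adjusted p = 0.0733). Ndufa4 read 1715, 1604, 1120 and 1921 at 30 min and 700.6, 862.4 and 914.5 with IL-2, without overlap, and fell by 0.91 ± 0.21 (limma adjusted p = 0.0104). Ndufb9, an accessory subunit of the membrane arm, fell by 0.59 ± 0.14 (limma adjusted p = 0.0123) and Atp5j, which couples the stalk of the synthase to its head, by 0.61 ± 0.14 (limma adjusted p = 0.00909).

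The genes that rose against 30 min were Ndufaf4, by 1.25 ± 0.20, Ndufaf6, by 1.16 ± 0.19, Ndufb1, by 0.99 ± 0.24, and Ndufaf1, by 0.47 ± 0.14 (limma adjusted p = 0.00151, 0.00145, 0.0138 and 0.0372). Ndufb1, a small subunit of the membrane arm, was the 1 subunit gene among them. It read 249.5, 164.9, 237.2 and 239.0 at 30 min, 430.1, 270.8, 519.5 and 414.2 at 4.5 h, and 364.7, 431.2 and 588.3 with IL-2. All arrays of both later groups were above all 30 min arrays. Without IL-2 replicate 4 its adjusted p against 30 min was 0.0617, and the call of Ndufaf1 was lost in 8 of the 11 fits that left out an array, with differences between 0.41 and 0.57.

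This comparison is the 1 in which arrays of both groups were scanned on the same day. Among those arrays, 3 against 3 on the first day, 3 members rose and 4 fell, and the median was -0.29. The number that fell was 8 to 14 without any 1 of IL-2 replicates 1, 2 and 4, 30 min replicates 1 and 3 and 4.5 h replicates 1, 3 and 4, and 17 to 21 without any 1 of the other arrays. With the left-out library included, 2 members rose and none fell.

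Among the members, 2 genes had tested probe sets that were called in opposite directions at matched time, so their brightest probe set does not describe all their probes. For Ndufs4, an accessory subunit of complex I, the brightest probe set had a difference of -0.02 ± 0.14 (limma adjusted p = 0.917). Another read 252.8, 191.3 and 166.6 with IL-2 and 410.2, 418.5, 458.7 and 381.6 at 4.5 h, and fell by 1.00 ± 0.17 (limma adjusted p = 0.00174). A further one read 249.6, 416.8 and 270.9 with IL-2 and 53.3, 61.5, 62.3 and 65.8 at 4.5 h, and rose by 2.07 ± 0.37 (limma adjusted p = 0.00238). Neither overlapped between the groups. For Ndufab1, the mitochondrial acyl carrier protein, 1 probe set fell by 0.76 ± 0.18 (limma adjusted p = 0.00948), and a dim one rose by 1.18 ± 0.38 (limma adjusted p = 0.0381), with signals of 52.9, 54.3 and 88.8 with IL-2 and 5.7 to 56.2 at 4.5 h that overlapped. Both Ndufab1 probe sets were called the other way over time.

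Several complex IV subunits exist in a widely expressed form and a form of muscle, heart or other tissues. On the 11 arrays the muscle forms Cox6a2, Cox7a1 and Cox8b read 10.7 to 197.1, 3.7 to 65.6 and 2.9 to 105.8, and Cox6b2, known from testis, read 2.2 to 102.3. Cox4i2, known from lung, read 14.5 to 110.1, and Cox8c, known from testis, read 112.6 to 388.3. Their widely expressed counterparts were all well measured, with Cox6a1 at 21211 to 45017 and Cox7a2 at 13892 to 23172. Cox6a2, Cox4i2 and Cox8c were tested and not called in any comparison, with limma adjusted p = 0.262, 0.128 and 0.546 at matched time.

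**Figure D5:**
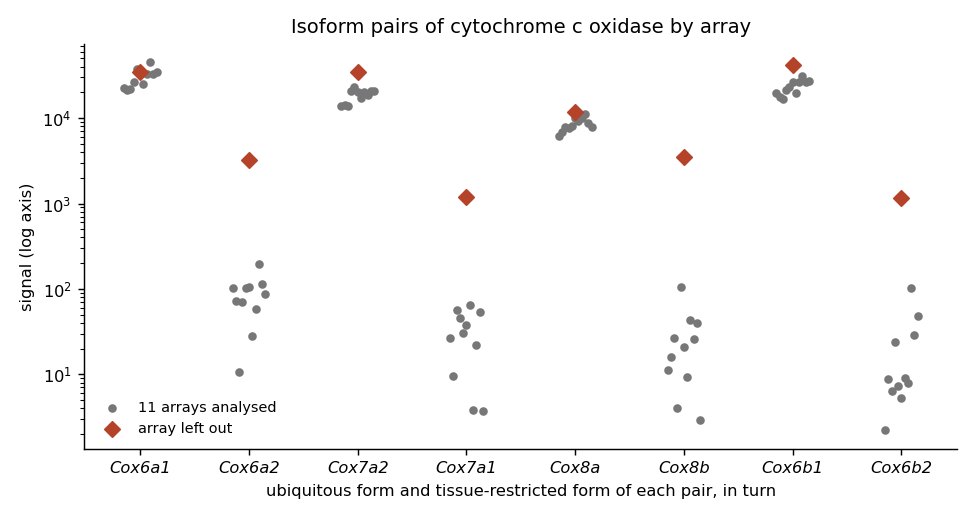
Signal (log axis) of 4 pairs of complex IV subunits, each a widely expressed form followed by a tissue-restricted form, on the 11 arrays analysed (grey points) and on the left-out library (red diamonds). The restricted forms are at most 197.1 on the 11 arrays and between 1175.3 and 3472.7 on the left-out library.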

How the data were processed

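The deposited values are linear intensities, 1 for each probe set on each array. The submitters' processing notes name GCOS 1.3, and before deposit each array had been scaled to the same trimmed mean. How background was corrected and probes were summarised is not given in the sources used here. Only the scan day was taken from the scanner's information files, per the file headers.

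The scale of analysis was log2(signal + 16), without another normalization step, which understates differences of dim probe sets. Probe sets with a mean at or above the 40th percentile (signal 33.6) were tested, 27022 in all. A model with 3 groups was fitted to 11 arrays with limma 3.58.1 (R 4.3.3), with Benjamini-Hochberg adjustment. The number of arrays limits the precision. The brightest tested probe set stood for each of 12754 genes. Tables and figures were made with python 3.11.15 and pandas 2.3.3, and the fit was tested on simulated data.

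Members, lists and alternatives were chosen with earlier results of these data known. The text names, per comparison and complex, up to 4 genes that rose and 4 that fell, all of complex II, isoform pairs, Ndufaf genes that changed, genes with opposite probe sets, Cycs, Cyc1, and up to 2 each way of the other lists. Replicate numbers were not taken to pair the arrays, because not every pair correlated above 0.1: the correlation of deviations between the IL-2 and 30 min arrays of the same number was 0.126, 0.091 and 0.216. Gene symbols are those that the platform's probe table gives, and 10 probe sets with a matching prefix and several symbols were not used. Alternatives are given in the closing section.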

Additional observations from a re-analysis of the deposited data

Results flagged for a closer look

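On the array with the label IL-2 plus cycloheximide replicate 3, which entered no comparison, tissue-restricted forms of complex IV subunits were far above the other 11 arrays. Cox6a2 read 3241.3 there and 10.7 to 197.1 on the others, Cox8b 3472.7 against 2.9 to 105.8, Cox7a1 1208 against 3.7 to 65.6, and Cox6b2 1175.3 against 2.2 to 102.3.

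Within the groups of 4 arrays, single arrays stood far from the rest for 11 of 178 combinations of a named gene and a group, where chance gives about 1 in 20. Of these, 4.5 h replicate 2 was the high array for Atp5b (22667, others 21641 to 21689), Cox5b (36061, others 28916 to 29908), Cs (9071, others 6854 to 6973), Mrpl52 (8816, others 5830 to 6154) and Ndufs4 (7035, others 5538 to 5712), and the low array for Sdha (4015, others 5006 to 5122). Replicate 1 of that group was high for Ndufb7 (12292, others 10723 to 10923). In the 30 min group, replicate 3 was high for Ndufaf4 (1995, others 1124 to 1216) and Ndufb9 (9812, others 7501 to 7715), replicate 2 was low for Ndufb1 (164.9, others 237.2 to 249.5) and replicate 4 was low for Cs (5729, others 7246 to 7527).

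Among the means over gene lists, 4.5 h replicate 2 stood at 0.67 on the log2 scale relative to the 30 min mean for cytosolic ribosomal proteins, with the other arrays of its group at 0.21 to 0.24. For all subunit genes 4.5 h replicate 4 stood at 0.08, with the others at 0.12.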

How the results depend on the processing

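With IL-2 at matched time 2 members rose in every fit that left out an array, and 24 to 40 fell, with a median between -0.43 and -0.37. Leaving out an array gave medians of -0.40 to -0.35 for complex I, -0.19 to -0.06 for complex II, -0.44 to -0.31 for complex III, -0.69 to -0.60 for complex IV and -0.58 to -0.51 for complex V. Over time in cycloheximide 8 to 20 members rose and 3 to 6 fell, with a median of 0.07 to 0.16, and the complex medians were 0.10 to 0.15, -0.38 to -0.30, 0.01 to 0.15, 0.18 to 0.33 and 0.09 to 0.19 for complexes I to V. Against 30 min 3 or 4 rose and 8 to 21 fell, with a median of -0.36 to -0.29, and the complex medians were -0.32 to -0.23, -0.31 to -0.21, -0.34 to -0.24, -0.58 to -0.42 and -0.42 to -0.38. The number of arrays limits these counts. No depth is defined for arrays, and members under the brightness limit were not tested.

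With a 2-fold threshold 1 member rose and 4 fell at matched time, 1 rose and 0 fell over time, and 2 rose and 0 fell against 30 min. With all 12 arrays 1 fell at matched time, with medians of -0.10 over the members and -0.08, 0.19, 0.01, -0.42 and -0.23 for complexes I to V, and Sdhb was at 0.12. In that fit 2 rose and 0 fell over time, and 2 rose and 0 fell against 30 min, with medians of -0.02 over the members and 0.01, -0.01, 0.12, -0.18 and -0.12 for the complexes. There Ndufa10 was at 0.02, Ndufa4 at 0.03 and Mrpl13 at 0.23.

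With quantile normalization 20 fell at matched time, with medians of -0.26 over the members and -0.27, -0.23, -0.20 and -0.33 for complexes I, III, IV and V. Over time its medians were 0.08 for complex IV and 0.08 for complex V, and against 30 min 10 fell, with medians of -0.17 over the members and -0.20, -0.12, -0.14 and -0.17 for complexes I, III, IV and V. With median centring 2 fell over time, with medians of 0.19 over the members and 0.22, 0.14, 0.34 and 0.22 for the same complexes, and 3 fell against 30 min, with -0.21 over the members and -0.18, -0.13, -0.18, -0.35 and -0.26 for complexes I to V. Median centring also moved the share of called probe sets that were higher against 30 min from 53.3% to 67.4%.

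Centring on ribosomal protein genes moved the median of all probe sets to 0.70 at matched time, -0.30 over time and 0.36 against 30 min, and the share of called probe sets that were higher to 95.5%, 19.1% and 89.0%, from 49.7%, 52.1% and 53.3%. At matched time 15 members rose and 1 fell, with medians of 0.33 over the members and 0.36, 0.59, 0.37, 0.05 and 0.15 for complexes I to V. Over time 1 rose, with medians of -0.21 and -0.18, -0.66, -0.25, -0.05 and -0.18, and against 30 min 0 fell, with 0.06 and 0.10, 0.15, 0.10, -0.07 and 0.01. In this setting the matched-time differences changed sign for Atp5g1 (0.09), Atp5j (0.15), Atp5l (0.20), Cox6b1 (0.09), Cox7a2 (0.20), Ndufaf2 (0.16), Ndufc1 (0.05), Ndufs4 (0.69), Sdhb (0.23), Uqcrc1 (0.14) and Uqcrc2 (0.15). The same held for Cox10 (0.25), Cyc1 (0.04), Ecsit (0.20), Mrps10 (0.17), Pdha1 (0.04), Sdhaf1 (0.02), Suclg2 (0.03) and Tmem126a (0.20), and against 30 min for Mrpl35 (0.01) and Ndufaf2 (0.03).

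With probe sets averaged within each gene 3 fell over time. The complex IV medians were then -0.50 at matched time and 0.12 over time, that of complex V 0.20 over time and that of complex I -0.23 against 30 min, and Cox10 was at 0.01 at matched time. Without probe sets that can cross-hybridize 5 fell over time, the complex III median against 30 min was -0.22, and Atp5pb was at 0.01 at matched time and -0.23 over time. Against 30 min 39 fell with the trend and robust settings of eBayes and 6 with no filter or with only the 2 groups compared. Over time 9 rose and 2 fell with no filter, and 3 fell with only the 2 groups compared.

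With the replicate number as a block 2 rose and 28 fell at matched time, 5 fell over time and 10 fell against 30 min. The numbers were not taken to pair the arrays, since 1 of 3 pairs correlated at no more than 0.1. Each of the 3 IL-2 arrays correlated best, among the 30 min arrays, with the one of its own number (0.126, 0.091 and 0.216), a hint from the data and not from the design. The converse did not hold for 30 min replicate 2, which correlated at 0.091 with IL-2 replicate 2 and at 0.124 with IL-2 replicate 1. With the scan day as a block, which could be fitted only against 30 min and equals a fit of the first day alone, 4 fell and the complex I median was -0.23. The pseudocounts of 1 and 64 and the 60th percentile filter left every count of members within 1.5 times its value and the medians within the replicate spread. The cause of these shifts was not tested.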
